A study of Mus musculus with 12 samples.

Results

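The genes described here encode the machinery of oxidative phosphorylation in mouse small intestinal organoids: 102 genes of the nuclear genome and the 13 protein genes of the mitochondrial genome, 115 of the 32587 rows in the expression tables. Nuclear members were taken by symbol, as rows that begin with Nduf, Uqcr, Sdha to Sdhd, Atp5 or Cox4 to Cox8, with 3 pseudogene rows marked -ps left out. The rule itself uses no measured value, but it was set with earlier results of these data known. The rule also admits assembly factors that share a prefix, 8 of complex I and 4 of complex II. By complex, the nuclear members were 49 of complex I, 8 of complex II, 8 of complex III, 20 of complex IV and 17 of complex V, and the mitochondrial members were 7 of complex I, 1 of complex III, 3 of complex IV and 2 of complex V.

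Wild-type (WT) organoids were exposed to the bile acids CA, CDCA or DCA (by their usual abbreviations cholic, chenodeoxycholic and deoxycholic acid) or to the vehicle DMSO, with 3 libraries in each of the 4 groups. Organoids are cultures of gut epithelium that grow from intestinal stem cells; these are labelled as duodenal and were kept in IntestiCult growth medium, and all were WT. The labels give each acid as 50 mmol/L, a unit that could not be checked here, and give the exposure as 96 hours in one field and as 2 days in another. Nothing in them says that replicates were grown as separate cultures or from separate mice, so each p-value reflects the spread among these libraries alone and that spread may be technical. The question addressed was what each bile acid does to the organoid transcriptome.

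In the inner mitochondrial membrane, complexes I to IV pass electrons from NADH and succinate to oxygen and complexes I, III and IV pump protons, and complex V, the ATP synthase, uses the proton gradient to make ATP. Complexes I, III, IV and V are assembled from subunits of both genomes, whereas all 4 subunits of complex II are nuclear. Mitochondrial genes are transcribed from both strands as long RNAs that are then cut into single messages, while each nuclear gene has a promoter of its own. Absorptive enterocytes of the gut are rich in mitochondria, since nutrient uptake uses much ATP.

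Values are given as TPM, a transcript level scaled to transcript length and to the library total, so the read depth behind each value is unknown. The tables used here summed to 889156 to 936841 TPM per library; what is missing from the full TPM sum was not analysed here, and it was smallest in the DCA libraries (6.32% to 6.74%) and largest in DMSO replicate 2 (11.1%). The epithelial marker Epcam lay between 694 and 828 TPM in every group, the duodenal factor Pdx1 between 8.16 and 11.2 TPM, and none of the marker lists for mesenchyme, immune cells, endothelium, muscle or glia and neurons summed to more than 6.25 TPM in any library. Of the series as a whole, 2 libraries resembled DCA more than their own group did, CDCA replicate 3 and DMSO replicate 1. A fit that omits them changed no count of members by over 1.5 times except where stated. In the summed levels of the members, other libraries of these groups lay nearest DCA. The ratio of mitochondrial to nuclear sums was 4.98 in DMSO replicate 3 and 6.24 in DMSO replicate 1. It was 4.82 in CDCA replicate 1 and 5.41 in CDCA replicate 3.

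Under DCA the summed levels of the 2 genomes lay on opposite sides of DMSO. Shares are given of the summed rows of each library, a total below the full TPM sum that differed between libraries. The 13 mitochondrial genes made up 11.2%, 11.6% and 12.7% of it in DCA libraries, against 17.0%, 20.1% and 14.6% in DMSO libraries. Every DCA library lay below every DMSO library. The 102 nuclear genes made up 3.32%, 3.32% and 3.12% in DCA libraries, against 2.72%, 2.57% and 2.94% in DMSO libraries, and every DCA library lay above every DMSO library. Because TPM are shares of a fixed total, a lower mitochondrial share by itself raises every other share. The ratio of the 2 sums does not depend on that total: it was 3.37, 3.49 and 4.08 under DCA, against 6.24, 7.81 and 4.98 under DMSO, again without overlap. Taken out of what remains after the mitochondrial rows and their 2 identical copies (described further on) are removed, the nuclear genes were still 3.84%, 3.86% and 3.69% under DCA, against 3.40%, 3.36% and 3.53% under DMSO.

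CA and CDCA libraries lay between these groups or within the DMSO range. Under CA the ratio of mitochondrial to nuclear sums was 4.54, 4.61 and 4.58, below all 3 DMSO libraries and above all 3 DCA libraries, and the 3 libraries were closer together than in any other group. Under CDCA the ratio was 4.82, 6.46 and 5.41, which overlapped DMSO. The mitochondrial share was 14.4%, 13.6% and 13.9% under CA, all below the lowest DMSO library, and 14.2%, 18.1% and 15.5% under CDCA. Nuclear shares were 3.17%, 2.96% and 3.04% under CA and 2.94%, 2.81% and 2.87% under CDCA, with only the CA libraries clear of the DMSO range. These sums are given as values without a test. In bulk RNA, fewer cells of a type and less RNA per cell cannot be told apart.

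**Figure D1:**
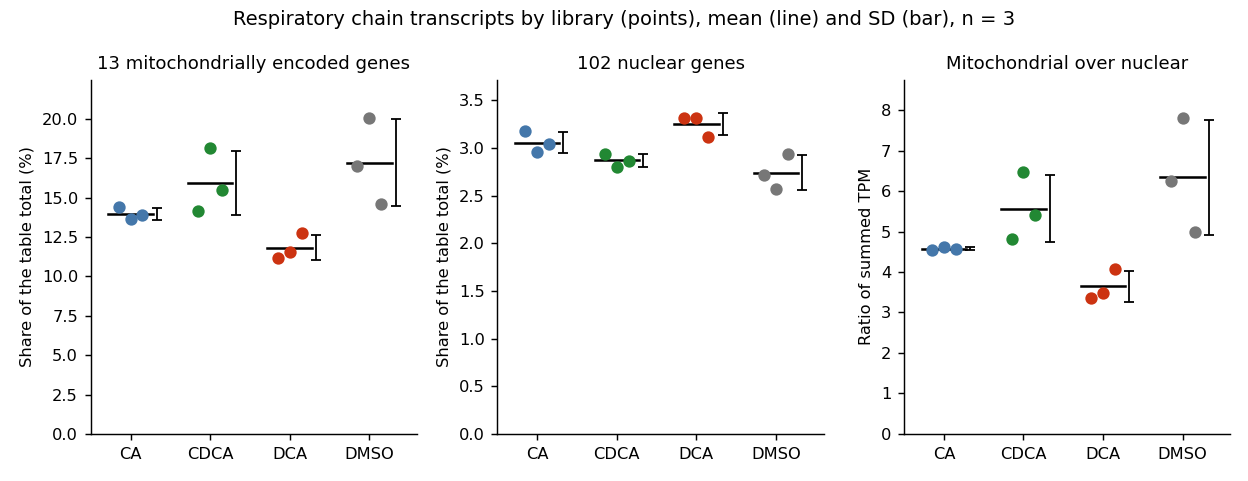
Share of the table total in percent for the 13 mitochondrially encoded genes (left) and the 102 nuclear genes (middle), and the ratio of the 2 sums (right), with one point per library, the group mean as a line and the SD as a bar (n = 3). DCA libraries lie lowest in the left and right panels (11.2% to 12.7%, ratio 3.37 to 4.08) and DCA and CA libraries lie above DMSO in the middle panel.

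All 13 mitochondrial genes had lower mean log2 levels under DCA than under DMSO, and 10 of them passed the test, none in the other direction; the median of the 13 log2 differences was -0.59, where the median over all 11952 rows tested was -0.02. Each row was tested with limma on log2(TPM + 1), with Benjamini-Hochberg adjustment over all 11952 rows and a threshold of 0.05 on the adjusted p; a row that passed is said to be called. Across all rows 38% were called between DCA and DMSO, 18.8% higher and 19.2% lower, and the mitochondrial count is to be read against the 19.2%. The number called was 6 without DCA replicate 1, without DCA replicate 2 or without DMSO replicate 2, and 5 with median-ratio scaling of the libraries or with no filter on low values.

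Of the complex I genes, ND6 fell furthest. ND6, the one protein gene on the strand opposite to all the others, was at 401, 412 and 539 TPM under DCA, against 1117, 1408 and 949 TPM under DMSO, a log2 difference of -1.35 (95% interval -1.85 to -0.85, limma adjusted p = 0.000967). The groups did not overlap. ND6 lies across from other mitochondrial RNA on the opposite strand, and whether the quantification used the strand is not given in the sources used here, so its level is uncertain. ND3 was at 1635, 1988 and 1751 TPM under DCA, against 3469, 3519 and 2384 TPM under DMSO (-0.78, limma adjusted p = 0.00206), without overlap. ND1 was at 12000, 12628 and 13606 TPM under DCA, against 15480, 18511 and 14582 TPM under DMSO (-0.34, limma adjusted p = 0.00768), a narrower gap that also left no overlap. ND4 (-0.35) and ND5 (-0.24) were called with adjusted p of 0.0352 and 0.0452 in limma, and lost their calls without any 1 of 4 and of 8 libraries, with adjusted p up to 0.135 and 0.151 in limma. ND2 differed by -0.22 (95% interval -0.40 to -0.03, limma adjusted p = 0.0585) and was not called.

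CYTB, the only mitochondrial subunit of complex III and its catalytic core, stood at 13204, 13490 and 15322 TPM under DCA, against 21446, 24132 and 17682 TPM under DMSO. The groups did not overlap (log2 difference -0.58, 95% interval -0.80 to -0.36, limma adjusted p = 0.000998), and the call held without any 1 library. In complex IV, COX1, which carries the oxygen-reducing centre and was the most abundant member under DMSO at 49326 ± 9333 TPM (SD, n = 3), had 35104, 37158 and 40696 TPM under DCA, against 49735, 58448 and 39795 TPM under DMSO. The highest DCA library lay above the lowest DMSO library, and the difference of -0.37 (limma adjusted p = 0.0225) lost its call without DCA replicate 1 or 2 or DMSO replicate 1 or 2 (adjusted p up to 0.0813). COX3 was at 1404, 1322 and 1520 TPM under DCA, against 2713, 3394 and 4457 TPM under DMSO (-1.29, limma adjusted p = 0.00403), well apart. COX2 spread more within groups than between them, at 838, 384 and 871 TPM under DCA, against 672, 1920 and 1700 TPM under DMSO, and was not called (-0.99, 95% interval -1.96 to -0.02, limma adjusted p = 0.101). In complex V, ATP8, a small membrane subunit, had 9215, 9261 and 10336 TPM under DCA, against 17376, 16519 and 10538 TPM under DMSO (-0.59, limma adjusted p = 0.0414); the call was lost without any 1 of 7 of the 12 libraries, among them all 3 DCA libraries.

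The make-up of the mitochondrial RNA also differed in value. Within the mitochondrial sum, a share in which the rest of the library cancels, ND6 took 0.382%, 0.382% and 0.454% under DCA, against 0.727%, 0.788% and 0.705% under DMSO. COX1 took 33.5%, 34.4% and 34.2% under DCA, against 32.4%, 32.7% and 29.6% under DMSO, so its part of the mitochondrial RNA was larger in every DCA library while its TPM were lower on average. CYTB took 12.6%, 12.5% and 12.9% under DCA, against 14.0%, 13.5% and 13.1% under DMSO. None of these shares was tested.

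**Figure D2:**
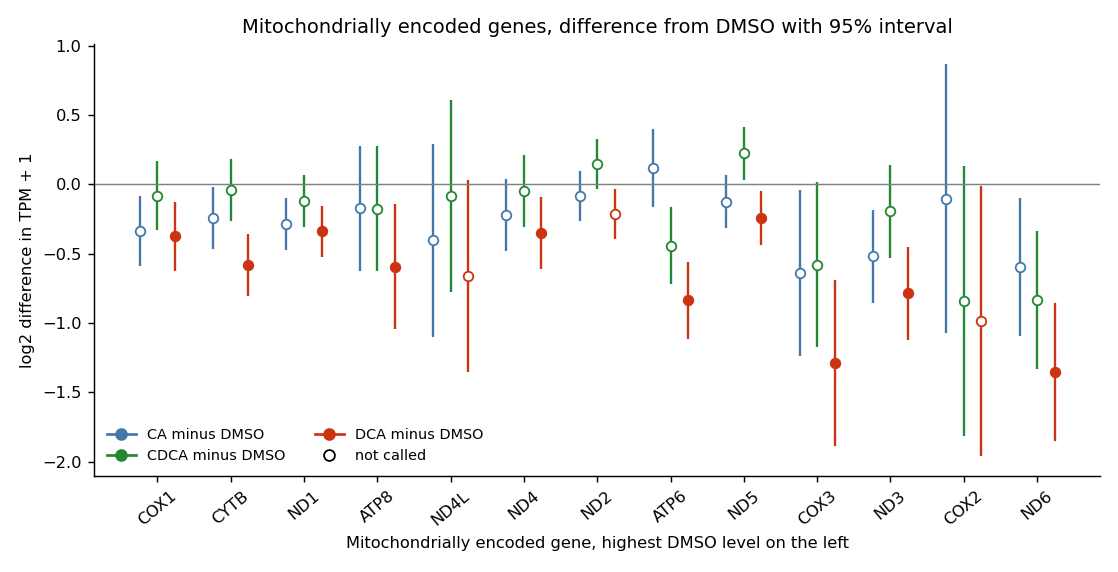
The log2 difference in TPM + 1 from DMSO for each of the 13 mitochondrially encoded genes, with 95% intervals, for CA, CDCA and DCA; filled points are called at an adjusted p under 0.05 and open points are not. All 13 DCA points lie below 0 and 10 are filled, from -0.24 for ND5 to -1.35 for ND6, whereas all CA and CDCA points are open.

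Several of these rows share their sequence with copies in the nuclear genome, insertions of mitochondrial DNA. In GENCODE M21 transcripts, 11 other genes matched a mitochondrial member at 95% identity or more over at least 100 bases, and 9 of the 13 members had such a match; ND1, ND6, CYTB and ATP8 had none. Only 2 of the 11 have a row in the tables, Gm10925 and Gm10222, both annotated as unprocessed pseudogenes; the other 9 were not analysed here. Gm10925 (chr1:24613974-24614651, minus strand, GRCm38) is identical to ATP6 over all its 678 bases, 3 bases short of the 681 of ATP6 (chrM:7927-8607). Gm10222 (chr1:24612407-24612700, minus strand) is identical to ND4L over all its 294 bases, 3 short of the 297 of ND4L (chrM:9877-10173). The 3′ ends are shown because those last 3 bases, in capitals, are all that sets each member apart from its copy; they are written 5′ to 3′ from GENCODE M21.
mt-Atp6: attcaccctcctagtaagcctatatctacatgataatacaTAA
Gm10925: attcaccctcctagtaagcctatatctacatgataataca
mt-Nd4l: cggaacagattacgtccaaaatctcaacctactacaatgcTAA
Gm10222: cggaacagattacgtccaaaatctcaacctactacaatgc

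The split of reads between such rows is therefore uncertain, and the sum of a pair is the firmer value. The Gm10925 row held more than the ATP6 row in all 12 libraries, and ATP6 held 16.1% to 18.4% of the pair under DCA and 19.5% to 27.0% under DMSO. The ATP6 row had 3262, 3427 and 4289 TPM under DCA, against 5620, 6584 and 7378 TPM under DMSO, a log2 difference of -0.84 (limma adjusted p = 0.000462). The pair summed to 20234, 20868 and 23336 TPM under DCA, against 28852, 33064 and 27328 TPM under DMSO, with a log2 difference of -0.47 (limma adjusted p = 0.000419, an alternative chosen after seeing the data). In both readings every DCA library lay below every DMSO library, and the difference of the pair was the smaller one.

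ND4L was less stable. The ND4L row held 59.2% to 61.8% of its pair under DCA, 79.6% to 96.9% under DMSO and as little as 51.0% and as much as 98.6% in single CA and CDCA libraries. Its level was 9415, 8898 and 9460 TPM under DCA, against 13522, 16573 and 14008 TPM under DMSO, groups that did not overlap but that missed the threshold (-0.66, limma adjusted p = 0.122). The pair summed to 15234, 15013 and 15969 TPM under DCA, against 16826, 20808 and 14460 TPM under DMSO, which overlap, and its difference was -0.16 (limma adjusted p = 0.38). COX2, COX3, ND3 and ND4 have copies, 99.7% to 100% identical over 63.6% to 99.9% of the member, that were not analysed here, so their single rows carry the same uncertainty, as do those of COX1, ND2 and ND5 with partial or less similar copies. Among the 4 members with no copy found in these transcripts, the differences were -0.34 for ND1, -0.58 for CYTB, -0.59 for ATP8 and -1.35 for ND6. The genome outside annotated transcripts was not searched, so these 4 may have copies too. Matches under 100 bases were not counted, and the level of ND6 remains uncertain because of its strand.

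**Figure D3:**
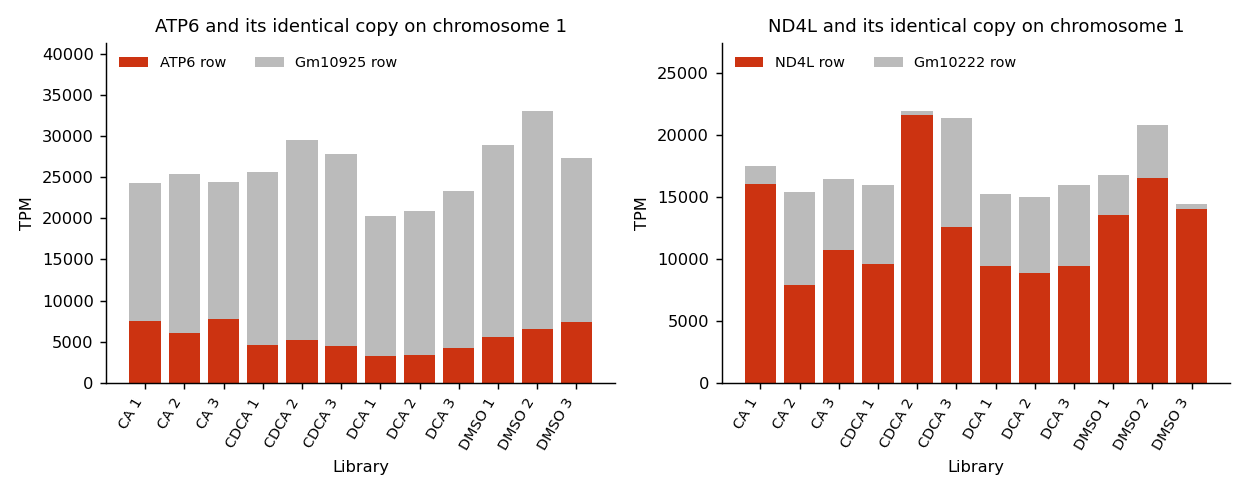
TPM by library for the ATP6 row stacked with its identical copy Gm10925 (left) and for the ND4L row stacked with Gm10222 (right). The height of the ATP6 stack is 20234 to 23336 TPM in DCA libraries and 27328 to 33064 TPM in DMSO libraries, while the boundary inside the ND4L stack shifts from library to library.

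Of the nuclear members, 96 of 102 passed the filter on low values (at least 1 TPM in 3 or more libraries); Cox4i2, Cox7b2, Cox8b, Cox8c, Ndufb11b and Ndufs6b did not: Cox8b reached 0.563 TPM at most and the other 5 were listed at 0 in every library. Between DCA and DMSO 54 of the 96 rose and 3 fell, where 18.8% of all rows rose and 19.2% fell; the median of the 96 was 0.25. The rises were spread over every complex, and all but those of Cox7a1, Cox6a2, Ndufa6 and Ndufa4l2 were below 0.60 on the log2 scale. The number called was 37, 36 of them higher, without DMSO replicate 2, the library with the lowest nuclear share, and 34, all higher, with no filter. With the 13 mitochondrial rows left out and the rest rescaled, the median over all rows moved to -0.15. Of the members 32 were then higher and 6 lower. In that setting 46.2% of all 12279 rows were called, 13.9% of all rows higher and the others lower. Relative to the median of all rows the nuclear median was 0.26 after that rescaling and 0.27 before it. The rescaling multiplies all remaining rows of a library by the same factor, so that difference could hardly move and is no check. Of all rows called 30% were higher after the rescaling and 49.4% before. Copies also touch the nuclear members. At 95% identity or more over at least 200 bases, 19 of them matched a pseudogene, and 15 matched a pseudogene not analysed here. The split of reads is uncertain for the single rows of those members too.

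In complex I 18 of 47 members tested rose and 1 fell. Among the 7 core subunits, which carry the electron path from NADH to ubiquinone, Ndufs7, Ndufv1 and Ndufv2 rose. Ndufs7, the subunit with the last iron-sulphur cluster before ubiquinone, was at 213, 212 and 213 TPM under DCA, against 162, 169 and 164 TPM under DMSO (0.37, limma adjusted p = 0.000427). Ndufa6, an accessory subunit that forms part of the active site region, rose furthest in the complex, at 689, 693 and 648 TPM under DCA, against 444, 427 and 440 TPM under DMSO (0.63, limma adjusted p = 8.43e-05). Of the membrane arm accessory subunits Ndufb10 had 284, 299 and 265 TPM under DCA, against 191, 179 and 193 TPM under DMSO (0.59, limma adjusted p = 0.000281), and Ndufb3 rose by 0.45 (limma adjusted p = 0.000415). None of these groups overlapped, and for 24.2% of all rows tested every DCA library lay above every DMSO library. The rows Ndufb4, Ndufb4b and Ndufb4c held the same values in all 12 libraries and count as 1 measurement (0.19, limma adjusted p = 0.113).

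Assembly factors help build the complexes without remaining in them. Of 12 tested, 8 of complex I and 4 of complex II, 1 rose, 1 fell and the median was -0.02. Counts this small are to be read against the 18.8% of all rows that rose and the 19.2% that fell. No result about the class follows from them. Of the 84 other members 53 rose, 2 fell and the median was 0.26. Whether the 2 classes differ was not tested. Ndufaf8 rose by 0.47 (limma adjusted p = 0.00234). Ndufaf2, which joins a late intermediate of complex I, fell to 19.2, 16.0 and 11.3 TPM under DCA, against 18.9, 24.5 and 31.3 TPM under DMSO (-0.65, limma adjusted p = 0.0198), with 1 DCA library inside the DMSO range; the call was lost without DCA replicate 3 or DMSO replicate 2 or 3 (adjusted p up to 0.0884).

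Complex II, succinate dehydrogenase, has no mitochondrial subunit, and all 4 of its structural genes rose. Sdhb, the iron-sulphur subunit, had 234, 232 and 219 TPM under DCA, against 167, 143 and 148 TPM under DMSO (0.58, limma adjusted p = 0.000116). Sdha, the flavoprotein that oxidises succinate, stood at 308, 311 and 286 TPM under DCA, against 245, 234 and 257 TPM under DMSO (0.30, limma adjusted p = 0.00725). The membrane anchors Sdhc (0.22) and Sdhd (0.25) had adjusted p of 0.0208 and 0.0411 in limma. The Sdhc call was lost without any 1 of 3 libraries (adjusted p up to 0.0719 in limma) and the Sdhd call without any 1 of 6 (up to 0.157), and both were lost with no filter and with the mitochondrial rows left out. For each of the 4 the lowest DCA library was above the highest DMSO library, as it was for 24.2% of all rows tested.

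In complex III 7 of 8 nuclear members rose. Uqcrq, a small subunit bound to CYTB, was at 476, 466 and 453 TPM under DCA, against 292, 278 and 365 TPM under DMSO (0.58, limma adjusted p = 0.000473). Uqcrh, the hinge protein and the most abundant nuclear member of the complex, rose to 1022, 1012 and 947 TPM under DCA, against 756, 690 and 843 TPM under DMSO (0.39, limma adjusted p = 0.00332). The Rieske iron-sulphur protein Uqcrfs1 rose by 0.38 (limma adjusted p = 0.00227), and the core proteins Uqcrc1 and Uqcrc2 by 0.20 and 0.27; Uqcrc1 lost its call without any 1 of 4 libraries (limma adjusted p up to 0.112). Uqcr10 was the exception, at 0.04 (95% interval -0.16 to 0.25, limma adjusted p = 0.737), and its sign turned when the mitochondrial rows were left out. CYTB of the same complex fell, by 0.58 on the log2 scale.

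In complex V 13 of 17 members rose and 1 fell. All 5 tested subunits of the F1 head rose, by 0.21 to 0.37, among them the catalytic subunit Atp5b, the most abundant nuclear member, with 2082, 2044 and 1877 TPM under DCA, against 1569, 1641 and 1859 TPM under DMSO (0.25, limma adjusted p = 0.022). The lowest DCA library was only just above the highest DMSO library, and the call was lost without DCA replicate 1 or 2 or DMSO replicate 1 or 2 (adjusted p up to 0.0845) and with the mitochondrial rows left out. The c-ring, the rotor turned by protons, is made of 1 protein encoded by 3 genes that differ in their import signals: Atp5g1 rose by 0.30, Atp5g3, the most abundant of the 3, differed by 0.12 and was not called (limma adjusted p = 0.173), and Atp5g2 fell by 0.48 (limma adjusted p = 0.0479). The Atp5g2 call was lost without any 1 of 7 of the 12 libraries (limma adjusted p up to 0.143) and with median-ratio scaling, no filter or no moderation, and that of Atp5g1 without any 1 of 3 libraries (up to 0.0593). Atp5g2 was minor, at 17.0, 17.4 and 21.7 TPM under DCA, against 23.6, 27.3 and 28.3 TPM under DMSO. The inhibitor of ATP synthase, in the row Atpif1 and not a member by prefix, rose to 798, 755 and 676 TPM under DCA, against 545, 510 and 601 TPM under DMSO (0.43, limma adjusted p = 0.00138).

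**Figure D4:**
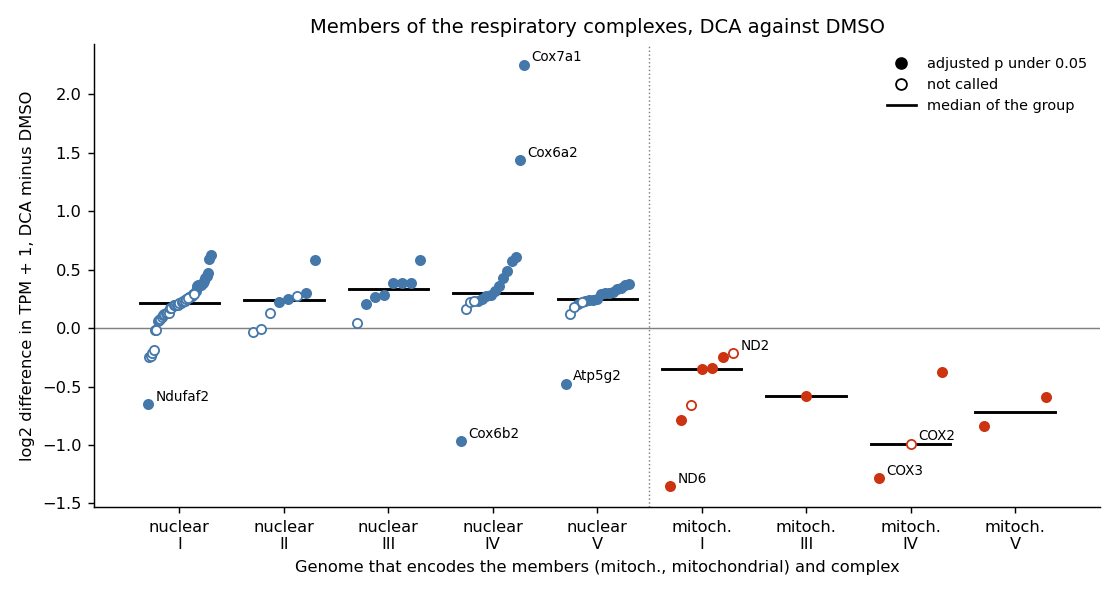
The log2 difference in TPM + 1, DCA minus DMSO, for each member tested, by genome and complex (nuclear left of the dotted line, mitochondrially encoded right of it); filled points are called, open points are not, and lines are group medians. Nuclear medians lie between 0.21 and 0.33 in the 5 complexes and all mitochondrial points are below 0, with Cox7a1 at 2.25 and Cox6a2 at 1.43 above all others.

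Complex IV, cytochrome c oxidase, held both the largest rise and the largest fall of the nuclear genes, and both were isoforms that are known for single tissues. Of 16 members tested 12 rose and 1 fell. Among widely expressed subunits Cox7c had 1118, 1051 and 978 TPM under DCA, against 709, 692 and 714 TPM under DMSO (0.57, limma adjusted p = 5.58e-05), Cox4i1 rose by 0.29 and Cox8a by 0.32, the last without a call when any 1 of 3 libraries was left out (limma adjusted p up to 0.079). Cox4i2, known as the lung form of subunit 4, was one of the rows listed at 0.

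Cox7a1, known as the heart and skeletal muscle form of subunit 7a, was at 161, 139 and 122 TPM under DCA, against 37.7, 31.3 and 19.8 TPM under DMSO, a 4.76-fold difference (log2 2.25, 95% interval 1.76 to 2.74, limma adjusted p = 4.78e-05). Every DCA library was more than 3 times the highest DMSO library. Its widely expressed partner Cox7a2 had 334, 341 and 323 TPM under DCA, against 300, 261 and 277 TPM under DMSO (0.25, limma adjusted p = 0.00925), so Cox7a1 made up 32.5%, 29.0% and 27.5% of the 2 rows under DCA, against 11.2%, 10.7% and 6.66% under DMSO. The related Cox7a2l, a factor that joins complexes III and IV into supercomplexes, rose by 0.28 (limma adjusted p = 0.00297). The 4 muscle markers Myh11, Des, Actg2 and Cnn1 together summed to at most 1.96 TPM in any DCA library and 2.25 TPM in any DMSO library.

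Cox6a2, another muscle form, was scarce: 5.24, 8.36 and 6.82 TPM under DCA, against 3.43, 2.16 and 0.655 TPM under DMSO (1.43, limma adjusted p = 0.0021), next to 727 ± 23.1 TPM of Cox6a1 under DCA and 626 ± 105 TPM under DMSO (SD, n = 3 each; not called, 0.23). Cox6b2, known as the testis form of subunit 6b, went the other way, with 15.0, 18.1 and 21.5 TPM under DCA, against 23.0, 39.8 and 51.6 TPM under DMSO (-0.97, limma adjusted p = 0.00508), while Cox6b1 rose by 0.23 (limma adjusted p = 0.0413), a call lost without any 1 of 8 of the 12 libraries (adjusted p up to 0.158) and in 7 other settings, among them no filter and the mitochondrial rows left out. With no filter the Cox6b2 call was lost too. Ndufa4l2, a hypoxia-induced relative of the complex IV subunit Ndufa4, had 13.4, 11.4 and 13.2 TPM under DCA, against 7.90, 7.42 and 8.62 TPM under DMSO (0.61, limma adjusted p = 0.0146; up to 0.0532 without DCA replicate 1 or DMSO replicate 2); Ndufa4 itself was not called (0.16, limma adjusted p = 0.163). Except for Cox6a1 and Ndufa4, no DCA library of these genes fell within the DMSO range.

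**Figure D5:**
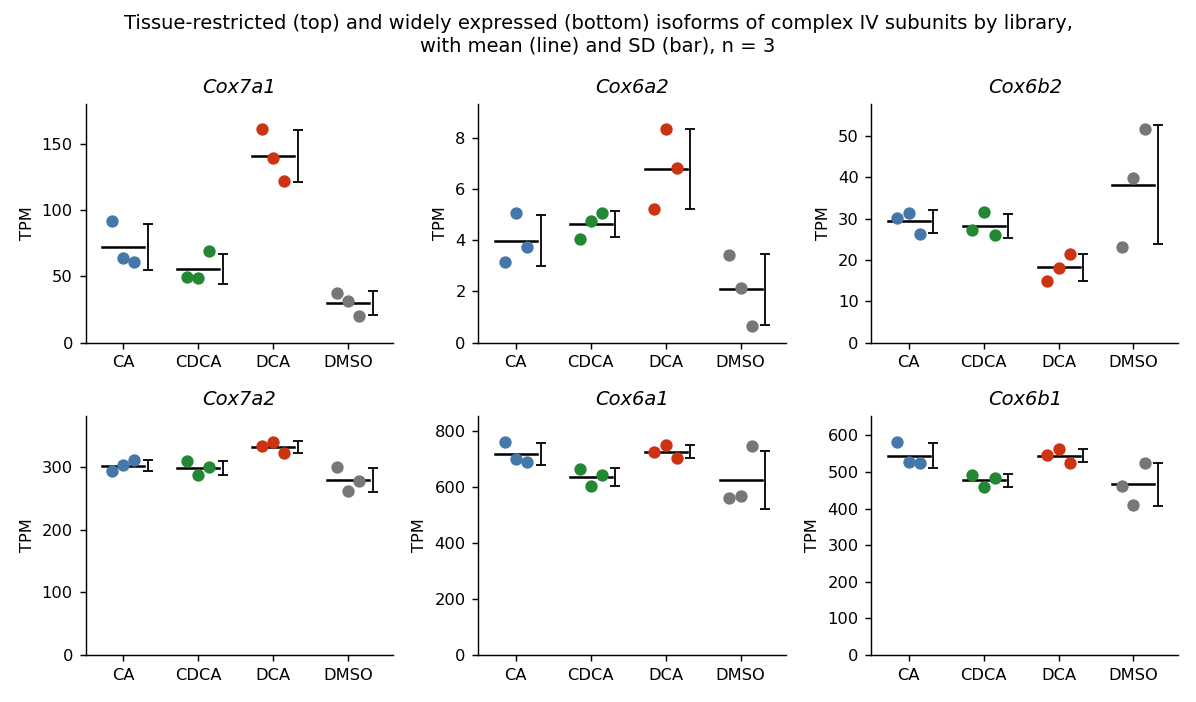
TPM by library for complex IV isoforms known for single tissues (top: Cox7a1, Cox6a2, Cox6b2) above their widely expressed partners (bottom: Cox7a2, Cox6a1, Cox6b1), with the group mean as a line and the SD as a bar (n = 3). Cox7a1 is at 122 to 161 TPM under DCA and 19.8 to 37.7 TPM under DMSO, Cox6b2 is lowest under DCA, and the partners stay within 410 to 763 TPM (Cox6a1 and Cox6b1) or 261 to 341 TPM (Cox7a2).

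The promoters of the pair with the widest difference and of Sdhb, which rose with it, are shown since nuclear members carry one promoter each. Windows run from 250 bases before to 50 after the annotated start (RefSeq, GRCm38.p6; 5′ to 3′ on the gene's strand) and 4 short motifs were searched on both strands: the palindromic core bound by NRF1, TCAAGGTCA, known for ERR receptors, CCGGAAGT, known for GABP, and CCAAT. Matches are in capitals, and no motif overlapped another in these windows. The windows are chr7:30183921-30184220 on the plus strand for Cox7a1, chr9:79759804-79760103 on the minus strand for Cox7a2 and chr4:140961021-140961320 on the plus strand for Sdhb.
Cox7a1: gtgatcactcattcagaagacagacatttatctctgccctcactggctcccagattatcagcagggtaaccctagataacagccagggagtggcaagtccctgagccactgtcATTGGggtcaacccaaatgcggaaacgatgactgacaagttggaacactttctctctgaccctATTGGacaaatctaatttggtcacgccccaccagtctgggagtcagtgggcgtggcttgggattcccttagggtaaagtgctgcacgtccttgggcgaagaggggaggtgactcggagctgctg
Cox7a2: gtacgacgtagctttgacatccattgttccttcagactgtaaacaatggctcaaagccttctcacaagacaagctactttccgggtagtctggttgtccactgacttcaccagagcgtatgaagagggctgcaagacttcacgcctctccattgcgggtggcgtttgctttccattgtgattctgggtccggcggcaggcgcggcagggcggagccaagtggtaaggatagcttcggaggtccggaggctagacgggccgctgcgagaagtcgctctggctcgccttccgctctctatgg
Sdhb: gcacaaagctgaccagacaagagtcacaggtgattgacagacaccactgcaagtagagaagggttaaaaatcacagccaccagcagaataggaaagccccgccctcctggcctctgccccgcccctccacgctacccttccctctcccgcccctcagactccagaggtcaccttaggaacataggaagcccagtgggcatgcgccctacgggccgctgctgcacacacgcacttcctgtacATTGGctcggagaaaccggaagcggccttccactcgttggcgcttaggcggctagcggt

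Cox7a1 held CCAAT (as ATTGG) at 2 places, Sdhb at 1 and Cox7a2 at none, and the other 3 motifs were not found in these windows. Of the nuclear members 82 matched a promoter in the table. The NRF1 core stood in 7 of them (8.54%) and in 1.07% of all 27025 genes with a promoter there, and in 2 of the 43 matched members that rose under DCA and 4 of the 34 that were not called. CCGGAAGT stood in 5 (6.1%) and in 4.31% of all genes, TCAAGGTCA in 2 (2.44%) and in 0.466%, and CCAAT in 35 (42.7%) and in 41.1%. These are matches of letters in one window and were not tested.

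CA changed fewer members. Over the 96 nuclear members the median was 0.17 and 90 were above 0, but 2 were called, both higher, where 0.569% of all rows were called higher and 0.00837% lower. Cox7a1 rose to 91.8, 63.5 and 60.8 TPM under CA, against 37.7, 31.3 and 19.8 TPM under DMSO (1.28, limma adjusted p = 0.0329), without overlap. For 11.8% of all rows tested every CA library lay above every DMSO library. Uqcrq was at 396, 448 and 454 TPM under CA, against 292, 278 and 365 TPM under DMSO (0.48, limma adjusted p = 0.0438). Both calls rested on single libraries: they were lost without any 1 of 7 and 10 of the 12 libraries, with adjusted p up to 0.156 for Cox7a1 and 0.193 for Uqcrq. The count was 0 with no filter, with the mitochondrial rows left out, with only the 6 libraries compared, without trend and robust moderation, and without any 1 CA or DCA library or DMSO replicate 2. It was 1 with median-ratio scaling, 1 without CDCA replicate 1 or 2, 5 without CDCA replicate 3 or DMSO replicate 3, and 10 without CDCA replicate 3 and DMSO replicate 1 together.

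No mitochondrial gene was called between CA and DMSO. An unadjusted p under 0.05 was found for 6 of 13, and for 1763 of all 11952 rows. Limma without trend and robust moderation also called 0 mitochondrial genes, and 2 were called without DMSO replicate 3. The median was -0.24. The differences furthest from 0 were those of COX3 (-0.64, 95% interval -1.23 to -0.04) and ND6 (-0.60, 95% interval -1.09 to -0.10), and the smallest adjusted p was 0.152, for ND1 (-0.29). ATP6 stood at 7484, 6008 and 7762 TPM under CA, against 5620, 6584 and 7378 TPM under DMSO (0.12), the only one of the 13 above 0, but the sum with its copy was 24252, 25383 and 24401 TPM under CA, below all 3 DMSO sums, and differed by -0.27 (limma adjusted p = 0.124).

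CDCA differed from DMSO in no member that passed the test. Of 96 nuclear members 0 were called and 14 had an unadjusted p under 0.05 (median 0.07). Of 13 mitochondrial members 0 were called and 3 had one (median -0.12). Of all 11952 rows 1168 had one, and 0.594% were called, 0.51% higher and 0.0837% lower. Limma without trend and robust moderation also called 0 members of each genome. Without DMSO replicate 1 or 3, 1 nuclear member was called, and without DMSO replicate 2, 1 mitochondrial member. Cox7a1 had 49.6, 48.7 and 68.8 TPM under CDCA, above all DMSO libraries (0.92, limma adjusted p = 0.123). ND6 was at 531, 752 and 658 TPM under CDCA, below all DMSO libraries (-0.83, limma adjusted p = 0.188). Of all rows tested 6.97% lay wholly above DMSO under CDCA and 3.03% wholly below. CYTB (-0.04), COX1 (-0.08) and ND4 (-0.05) lay close to DMSO, and their sign turned with single libraries left out. The 3 comparisons with DMSO share the same 3 DMSO libraries.

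The acids were also compared with each other at the same stated dose and time, in 3 pairs, each adjusted over all rows tested. DCA lacks a ring hydroxyl that CA carries, and CDCA lacks a different one. Between DCA and CDCA 30 nuclear members rose and 0 fell (of all rows 27.8% were called, 12.8% higher and 15% lower; median 0.17), and 0 mitochondrial members rose and 5 fell (median -0.42). The nuclear count was 10 without CDCA replicate 2 or DCA replicate 1, 11 without DCA replicate 2, 9 with no filter, 19 without trend and robust moderation and 54 with median-ratio scaling. The mitochondrial count was 2 with no filter, 11 with only the 6 libraries compared, 3 without CDCA replicate 2 or DCA replicate 1 and 8 without DMSO replicate 2. Ndufa6 had 689, 693 and 648 TPM under DCA, against 465, 434 and 505 TPM under CDCA (0.53, limma adjusted p = 0.000729). Cox7a1 differed by 1.33 (limma adjusted p = 0.0019) and the subunits of complex II by 0.27 to 0.32, of which Sdha and Sdhd lost their calls without any 1 of 3 and of 4 libraries (adjusted p up to 0.0727 and 0.114 in limma). CYTB had 13204, 13490 and 15322 TPM under DCA, against 17965, 21523 and 21687 TPM under CDCA (-0.54, limma adjusted p = 0.00311), and ND5 differed by -0.47 (limma adjusted p = 0.00285). ND2 (-0.36), ND3 (-0.59) and ATP6 (-0.39; -0.36 summed with its copy) were the other 3, and the calls of ND3 and ATP6 were lost without any 1 of 3 and of 4 libraries.

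Between DCA and CA fewer members differed: 6 of 96 nuclear members rose and Atp5g2 fell (nuclear median 0.09). Of all rows 5.79% rose and 8.94% fell, so the nuclear count higher was near the share of all rows. Of 13 mitochondrial members 3 fell (median -0.27). The 6 nuclear members that rose were Ndufa6 (0.38), Cox7c (0.30), Cox7a1 (0.97), Cox7a2l (0.25), Sdhb (0.26) and Ndufb10 (0.28). Cox7a1 was at 161, 139 and 122 TPM under DCA, against 91.8, 63.5 and 60.8 TPM under CA. CYTB (-0.34) and ND6 (-0.76) were just past the threshold, with adjusted p of 0.0438 and 0.0466 in limma, and lost their calls without any 1 of 7 and of 8 libraries. ATP6 differed by -0.95 (limma adjusted p = 0.00227) as a single row but by -0.20 (limma adjusted p = 0.0785) as a sum with its copy, which ends the call. The nuclear count was 2 without CA replicate 2 or 3 or DCA replicate 1 or 2, 11 without DMSO replicate 3, 0 with no filter, 17 with only the 6 libraries compared and 27 with median-ratio scaling; only Cox7c and Ndufa6 kept their calls without any 1 library. The mitochondrial count was 0 with no filter, 5 with only the 6 libraries compared, 1 with median-ratio scaling, 1 without CA replicate 2 or 3, CDCA replicate 2, DCA replicate 1 or 2 or DMSO replicate 1, and 1 in the fit that omits CDCA replicate 3 together with DMSO replicate 1.

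Between CDCA and CA no member was called in either genome (0.0335% of all rows were, 0.00837% higher and 0.0251% lower). An unadjusted p under 0.05 was found for 7 of 96 nuclear and 4 of 13 mitochondrial members, and for 861 of all 11952 rows. The nuclear count was near the share of all rows. Limma without trend and robust moderation also gave 0 calls. The medians were -0.09 for nuclear and 0.18 for mitochondrial members. The intervals leave room for differences of some size: 0.01 to 0.50 for COX1, -0.02 to 0.42 for CYTB, -0.74 to 0.26 for ND6 and -0.85 to 0.13 for Cox7a1, all on the log2 scale.

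Other genes of mitochondrial energy metabolism, taken as whole lists, changed in part under DCA relative to DMSO. The counts are to be read against the 18.8% of all rows that rose and the 19.2% that fell, and no test compared the lists. Of 23 genes of pyruvate entry and the tricarboxylic acid cycle 16 rose and 2 fell (median 0.40). The kinases Pdk1 to Pdk4, which regulate pyruvate entry, are in that list, so its counts are not of enzymes of the path alone. Mdh2, malate dehydrogenase, was at 984, 1006 and 888 TPM under DCA, against 613, 460 and 547 TPM under DMSO (0.83, limma adjusted p = 0.000134). Pdha1, a subunit of pyruvate dehydrogenase, was 0.51 higher, while Pdk3 (-0.64) and Idh2 (-0.40) fell. Of 8 carriers of nucleotides, phosphate and protons tested 5 rose and 0 fell, led by the phosphate carrier Slc25a3 (0.60, limma adjusted p = 4.78e-05). Of 17 electron carriers and enzymes that make or load them 4 rose and 2 fell, shares near those of all rows, with Coq9 at 0.42 and Dhodh at -0.70. Assembly factors of complexes III, IV and V, with those of complex I that lack the prefix, had 9 higher and 1 lower of 36, and genes of the outer membrane, import and cristae 6 higher and 2 lower of 20, among them Vdac1 (0.47) and Chchd6 (-0.81).

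Of 30 genes that transcribe, process and maintain the mitochondrial genome 2 rose and 6 fell, the count lower being near the 19.2% of all rows that fell, and the median was -0.20. Tfam, which packages and activates mitochondrial DNA, was at 73.8, 68.2 and 60.1 TPM under DCA, against 83.5, 81.3 and 75.0 TPM under DMSO (-0.25, limma adjusted p = 0.0492). The nuclease Mgme1 fell by 0.53 and the RNA-binding Fastkd3 by 0.40, whereas Fastk rose by 0.52 and Mterf2 by 1.08. Of 14 nuclear regulators of respiratory genes 5 rose and 4 fell. Ppargc1a, a coactivator of mitochondrial genes, had 6.38, 6.18 and 5.89 TPM under DCA, against 3.22, 2.29 and 2.67 TPM under DMSO (0.95, limma adjusted p = 0.000584), its partner receptor Esrra rose by 0.63 and Ppara by 1.25, while Myc fell by 1.04, Esrrg by 0.86 and Gabpb1, a subunit of GABP, by 0.52. All 9 hypoxia-induced genes tested rose (median 0.81), among them the member Ndufa4l2 and Pdk1, which is also counted with pyruvate entry. Car9 was at 420, 410 and 390 TPM under DCA, against 170, 171 and 175 TPM under DMSO.

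The cell types of the organoids differed between the same groups. The 8 enterocyte markers summed to 4502 to 6266 TPM under DCA, against 1206 to 2116 TPM under DMSO, with 8 of 8 called higher, and under CA to 2176 to 3528 TPM and under CDCA to 1360 to 2234 TPM. The 6 stem cell markers summed to 122 to 142 TPM under DCA, against 453 to 945 TPM under DMSO, and the 6 markers of dividing cells to 358 to 371 TPM, against 584 to 783 TPM, with all 12 called lower. The Paneth cell sums were 2798 to 3323 TPM under DCA and 4099 to 7131 TPM under DMSO. The part of these shifts in the levels of the respiratory genes was not tested.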

How the data were processed

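Poly(A) RNA was extracted with TRIzol and sequenced from stranded dUTP libraries as paired reads, per the labels' protocols. The deposited TPM values (transcript levels scaled to length and library total) are the authors' own; the submitters' processing notes name Salmon 1.8.0 and GRCm39, while no source used here gives the annotation, the strand setting or how transcripts were summed to genes. TPM hold no counts, so depth and counting error are unknown. Rows with at least 1 TPM in 3 or more of 12 libraries (11952 of 32587) were tested on log2(TPM + 1), which understates changes of low genes, with limma 3.58.1 (R 4.3.3): 4 group means over all libraries, trend and robust moderation, two-sided, Benjamini-Hochberg adjustment per comparison over all rows, threshold 0.05. The test was checked on simulated data. Alternatives were another pseudocount, no filter, other scalings, a replicate block, only the libraries compared, no moderation and each library left out; the summed copies and the rescaling without copies and ribosomal RNA were added after seeing the data. Members, lists and tests were chosen with earlier results of these data known. Named were the 13 mitochondrial members, up to 8 called nuclear members per direction and comparison by smallest adjusted p, the most abundant nuclear member of a complex, the isoform sets of complex IV, Sdha to Sdhd, the ATP synthase inhibitor and up to 3 genes per list; members named as exceptions beside a count, such as Uqcr10 and Ndufaf8, and list genes given as examples were chosen after their values were seen. Copies were found with BLAST+ 2.17.0 in GENCODE M21 transcripts, and promoters come from RefSeq (GRCm38.p6). Both belong to another build than the notes name and were used for names and sequences only.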

Additional observations from a re-analysis of the deposited data

How the results depend on the processing

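Fits that share DMSO or any other library move together, and depth is unknown, so counting limits cannot be given. Of the members called 36 of 57 nuclear and 6 of 10 mitochondrial ones (ND1, ND3, ND6, CYTB, COX3, ATP6) kept their call between DCA and DMSO without any 1 library, 2 of 7 and 1 of 3 between DCA and CA, and 10 of 30 and 3 of 5 between DCA and CDCA. No called gene changed sign in any alternative run. With no filter the nuclear members called numbered 0 for CA against DMSO (2 in the report), 34 for DCA against DMSO (57), 0 (of 7) between DCA and CA, and 9 (of 30) between DCA and CDCA. With median-ratio scaling they were 1 for CA against DMSO, 27 between DCA and CA, and 54 between DCA and CDCA. For CA against DMSO the count was 0 with the mitochondrial rows left out, with or without their copies and ribosomal RNA, 0 with only the 6 libraries compared, 0 without trend and robust moderation and 10 without CDCA replicate 3 and DMSO replicate 1. It was 17 between DCA and CA with only the 6 libraries, and 19 between DCA and CDCA without moderation. Of mitochondrial members, no filter gave 5 for DCA against DMSO (10 in the report), 0 between DCA and CA (3), and 2 between DCA and CDCA (5). Median-ratio scaling gave 5 for DCA against DMSO and 1 for DCA against CA, the 6 libraries 5 between DCA and CA, and 11 between DCA and CDCA, and the fit without CDCA replicate 3 and DMSO replicate 1 gave 1 for DCA against CA. With the mitochondrial rows left out the nuclear median was 0.0885 for CA against DMSO, 0.11 for DCA against DMSO and 0.0685 for DCA against CDCA, and with copies and ribosomal RNA also out 0.0812, 0.0984 and 0.0658, while the median over all rows moved to -0.15 and -0.16 for DCA against DMSO. Leaving out each library gave nuclear counts of 0 to 5 for CA against DMSO, 0 to 1 for CDCA against DMSO, 37 to 70 for DCA against DMSO, 2 to 11 between DCA and CA, and 10 to 42 between DCA and CDCA, and mitochondrial counts of 0 to 2, 0 to 1, 6 to 10, 1 to 3 and 3 to 8. Nuclear medians then ran from 0.0124 to 0.137 for CDCA against DMSO and from 0.18 to 0.32 for DCA against DMSO. Among values not called, the sign turned for ATP6 summed with its copy (-0.27 for CA against DMSO, 0.16 for CDCA against CA), for ND4L summed with its copy (0.19 for CDCA against DMSO), and with the mitochondrial rows left out for Uqcr10 (-0.0941, and -0.106 with copies out) and Atp5g3 (-0.0179 and -0.0294) for DCA against DMSO. With single libraries out, values crossed 0 for CA against DMSO in COX2 (-0.58 to 0.18), ND2 (-0.18 to 0.0256) and ND5 (-0.19 to 0.00091), for CDCA against DMSO in COX1 (-0.23 to 0.0496), CYTB (-0.16 to 0.0611), ND4 (-0.17 to 0.068) and ND4L (-0.41 to 0.18), for DCA against DMSO in Uqcr10 (-0.032 to 0.13), and in ND4L for DCA against CA (-0.50 to 0.00889) and CDCA against CA (-0.00753 to 0.59). The cause was not tested for any of these. No pairing by replicate number was seen: of 18 same-numbered pairs 3 had a correlation over 0.1 (-0.378 to 0.109). Whether same-numbered libraries shared a culture or batch cannot be told from these correlations. With the replicate number as a block the nuclear counts were 1 for CA against DMSO, 51 for DCA against DMSO, 5 between DCA and CA, and 28 between DCA and CDCA, and the mitochondrial counts 10, 2 and 5 for the last 3.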
